A study of Mus musculus with 2 samples.

Results

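Touch, stretch, body position and acid are read by ion channels in the membrane of sensory neurons, and 9 genes for such channels and their partners were followed here in mouse dorsal root ganglia. They are Piezo1, Piezo2, Stoml3, Asic1, Asic2, Asic3, Tmem63b, Kcnk2 and Kcnk4, taken by symbol from a list, and all 9 were found among the 32285 genes counted in both libraries. Dorsal root ganglia, which lie beside the spinal cord and hold the cell bodies of somatosensory neurons, were dissected from all axial levels at postnatal day 4, dissociated, and run as 3′ single-cell RNA libraries. The conditional knockout library (cKO) came from Ptges3 flox/flox mice that also carried Dhh-Cre, and the flox library came from Ptges3 flox/flox mice, so both groups had the floxed alleles. Dhh-Cre is driven by desert hedgehog sequence and acts in the Schwann cell lineage, and Ptges3 encodes p23, a cochaperone also described as a prostaglandin E synthase. The series title concerns Schwann cell prostaglandin E2 and sensory neuron excitability. The comparison of the 2 libraries therefore bears on channel genes of neurons beside glia in which Ptges3 was targeted. The labels give neither the number of animals per library nor their sex.

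Piezo1 and Piezo2 are large cation channels opened directly by membrane tension, and Piezo2 is the main transducer of light touch and body position in somatosensory neurons. Stoml3 is a stomatin-like membrane protein that lowers the force needed to open Piezo channels, and Asic1, Asic2 and Asic3 form proton-gated sodium channels of the degenerin family. Kcnk2 (TREK-1) and Kcnk4 (TRAAK) are 2-pore-domain potassium channels that open on membrane stretch and hold neurons near rest. Tmem63b is a mammalian relative of the plant OSCA channels, which respond to osmotic and mechanical stress.

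The cKO library held 9703 cell barcodes and 78144437 UMIs (unique molecular identifiers, the molecule tags from which RNA copies are counted), and the flox library held 10014 barcodes and 132620886 UMIs. After filters and doublet removal 7866 cKO and 8107 flox cells were kept, with 16 barcode sequences in common. Cells were assigned by marker genes that did not include the 9 channel genes. Sensory neurons numbered 3099 in the cKO and 1573 in the flox library, at medians of 9224 and 46669 UMIs per cell. Ptges3 in glia stood at 127 CPM in the cKO library and 255 CPM in the flox library (CPM is a gene's UMIs scaled to 1e6 UMIs of the class), a log2 ratio of -1.003. The ratio of Ptges3 was 0.51 in sensory neurons, 0.36 in fibroblasts and 0.65 in vessels (endothelial and mural cells). Cells passing the gates of astrocytes and oligodendrocytes, cell types of the central nervous system, numbered 0 in the cKO library and 155 and 290 in the flox library. Another 301 flox glia and 0 cKO glia had a UMI of Olig1, a gene of the oligodendrocyte lineage, and were also kept out of the glia. Olig1 UMIs were found in 2.36% of flox fibroblasts, 3.72% of flox macrophages and 6.99% of flox sensory neurons too, so the 301 cells need not all be of that lineage. In cKO sensory neurons the share was 0.0645%. The part of such RNA in the neuron levels below was not tested. Each genotype is represented by 1 library, so nothing below was replicated and no test between genotypes was made. All intervals are 95% intervals and cover counting error only. Ratios divide the cKO level by the flox level and are given as log2.

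Start-site sequence was available for 8 of the 9 genes, all but Piezo2, in RefSeq (GRCm38.p6), in windows of 250 bases before to 50 bases after the start. The windows of 4 genes are shown as examples, with each CpG dinucleotide in capitals. Asic3 lies on chr5:24413201-24413500 (forward strand), Kcnk4 on chr19:6934466-6934765 (reverse), Tmem63b on chr17:45686169-45686468 (reverse) and Piezo1 on chr8:122551280-122551579 (reverse).
Asic3: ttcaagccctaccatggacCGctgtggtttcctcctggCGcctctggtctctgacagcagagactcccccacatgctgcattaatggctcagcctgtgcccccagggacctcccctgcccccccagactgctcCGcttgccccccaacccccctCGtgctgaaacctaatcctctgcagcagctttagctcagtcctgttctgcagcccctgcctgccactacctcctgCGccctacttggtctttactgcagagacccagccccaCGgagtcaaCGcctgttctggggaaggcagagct
Kcnk4: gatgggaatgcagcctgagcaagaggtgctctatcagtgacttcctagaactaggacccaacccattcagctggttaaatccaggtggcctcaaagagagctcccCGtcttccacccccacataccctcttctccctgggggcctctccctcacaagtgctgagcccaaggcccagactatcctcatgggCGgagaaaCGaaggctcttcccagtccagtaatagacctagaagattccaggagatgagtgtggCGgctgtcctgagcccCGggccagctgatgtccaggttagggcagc
Tmem63b: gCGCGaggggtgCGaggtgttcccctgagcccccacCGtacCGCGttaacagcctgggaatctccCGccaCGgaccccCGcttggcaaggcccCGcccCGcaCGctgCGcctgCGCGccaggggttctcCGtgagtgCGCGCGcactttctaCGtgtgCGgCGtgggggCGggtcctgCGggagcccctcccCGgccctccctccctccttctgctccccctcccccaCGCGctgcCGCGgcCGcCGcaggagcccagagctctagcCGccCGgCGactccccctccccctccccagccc
Piezo1: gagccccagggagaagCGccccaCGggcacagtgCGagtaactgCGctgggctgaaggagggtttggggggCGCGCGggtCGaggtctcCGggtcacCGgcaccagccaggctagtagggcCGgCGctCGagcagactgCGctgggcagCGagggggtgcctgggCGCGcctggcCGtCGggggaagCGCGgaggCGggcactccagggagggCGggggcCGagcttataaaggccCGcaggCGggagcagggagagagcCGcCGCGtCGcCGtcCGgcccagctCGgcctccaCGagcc
Tmem63b and Piezo1 had 34 CpG each in their 300 bases, at least as many as 93.0% of the 32851 windows in the table, whose median was 7. Asic3 had 7 and Kcnk4 had 5. Among the genes not shown, Asic1 had 7, Stoml3 had 4 and the 2 starts of Asic2 had 16 and 9, whereas the 4 starts of Kcnk2 had 3, 6, 33 and 33. CpG counts therefore did not follow the spread of expression over all 8 genes, since both starts of the mostly neuronal Asic2 lay above the median. The RUNX core TGTGGT (or ACCACA on the other strand) occurred in the window of Asic3 and in none of the windows of the other 7 genes, against 16.8% of all windows. RUNX factors are known for their part in the diversification of sensory neurons. A match is a run of letters and was not examined as a binding site.

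Piezo2 was by far the most counted of the 9 genes and was found mostly in neurons. Sensory neurons held 95.5% of its 28083 UMIs in the cKO library and 95.4% of its 42846 UMIs in the flox library. Its level over all sensory neurons was 515 CPM (509 to 521) in the cKO library and 591 CPM (585 to 596) in the flox library, a ratio of -0.20 (-0.22 to -0.18). Among neurons thinned to 10000 UMIs each, so that depth was equal, 91.2% of 1486 cKO neurons and 91.8% of 1340 flox neurons had a Piezo2 UMI, and without thinning the shares were 79.3% and 91.6%. At 2000 UMIs, 50.02% of cKO and 62.8% of flox neurons were positive, against 4.35% and 4.05% of glia. The share in neurons was thus over 10 times that in glia in both libraries.

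Subtypes of neurons were gated on other genes, and Piezo2 was high in touch classes and low in Trpm8 neurons in both libraries. The 3 highest classes of the flox library were Ntrk3 mechanoreceptors, C-low-threshold-mechanoreceptor-like neurons and Ntrk2 mechanoreceptors, which were not separated by their intervals. In the cKO library Ntrk3 mechanoreceptors (648 CPM) came after Mrgprd nociceptors. C-low-threshold-mechanoreceptor-like neurons, gated on Tafa4, had 888 CPM in the cKO library and 927 CPM in the flox library. Ntrk2 mechanoreceptors had 801 and 899 CPM in the cKO and flox libraries. Mrgprd nociceptors, the non-peptidergic neurons that end in the skin, had 673 CPM in the cKO library and 632 CPM in the flox library. Nociceptors gated on Calca and Tac1, the peptidergic class, were lower at 300.3 CPM in the cKO library and 334 CPM in the flox library. Cold-sensing Trpm8 neurons were lowest, with 232 CPM in the cKO library and 162 CPM in the flox library, and the highest subtype stood 3.83-fold above them in the cKO library and 5.78-fold in the flox library. At 10000 UMIs per cell the median Mrgprd nociceptor held 6 Piezo2 UMIs in each library, and the median Trpm8 neuron held 0. The gate of the C-low-threshold-mechanoreceptor-like neurons also asked for a UMI of Slc17a8, Zfp521 or Th, so their levels there are in part set by it. Slc17a8 was at 33.4 CPM in the cKO and 37.6 CPM in the flox library, against 5.24 and 7.62 CPM over all sensory neurons, and Zfp521 at 108 and 100.1 CPM, against 16.8 and 19.3 CPM. Th, a marker of the adult class, was at 3.71 and 3.93 CPM, below its level over all sensory neurons (4.82 and 6.31 CPM), and so goes against the name.

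**Figure D1:**
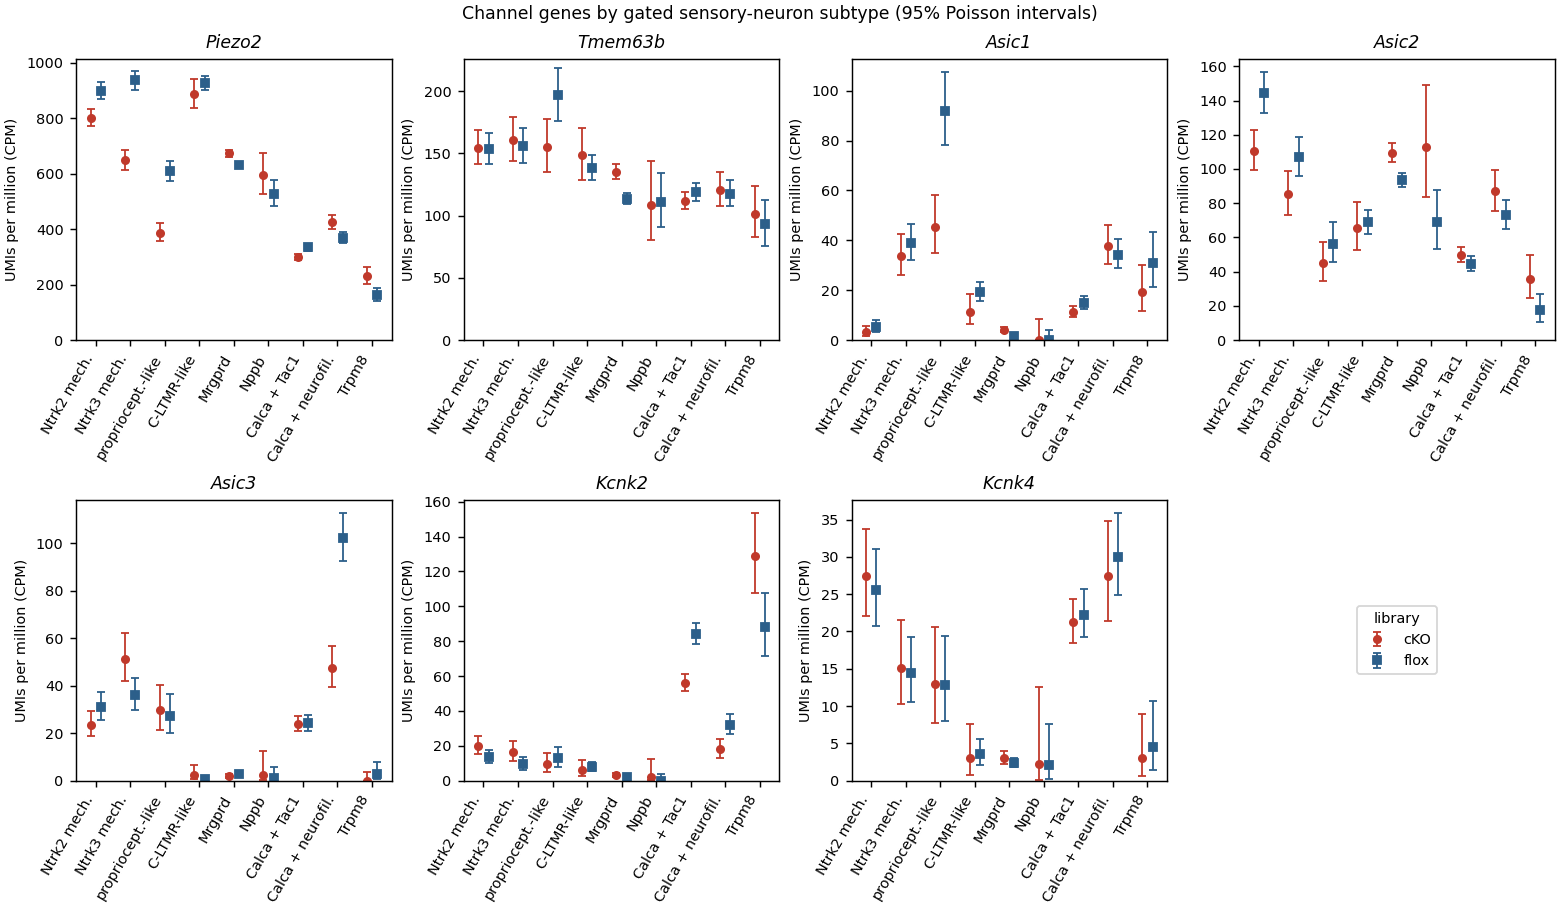
Levels of 7 channel genes (CPM of the subtype's total, with 95% Poisson intervals) in 9 gated neuron subtypes, cKO circles left of flox squares. Piezo2 is lowest and Kcnk2 highest in Trpm8 neurons in both libraries, and Asic3 and Kcnk4 are near 0 in the Mrgprd, Nppb, C-LTMR-like (C-low-threshold-mechanoreceptor-like) and Trpm8 neurons.

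The acid-sensing subunits divided the neurons differently. Asic2, which joins other acid-sensing subunits in mixed channels, was the most widely counted, at 80.6 CPM (78.2 to 83.1) in cKO neurons and 78.5 CPM (76.4 to 80.6) in flox neurons. It was high in Ntrk2 mechanoreceptors (111 CPM in the cKO and 144 CPM in the flox library) and Mrgprd nociceptors (109 and 93.5 CPM), and lowest in Trpm8 neurons (35.6 and 17.3 CPM). Nppb pruriceptors, 11 cKO and 19 flox cells, had 113 CPM (50 UMIs) in the cKO and 69.0 CPM (66 UMIs) in the flox library. The ratio of Asic2 there was 0.71 (0.15 to 1.26), and 0.85 in neurons with at least 20000 UMIs. After thinning to 10000 UMIs, 47.4% of cKO and 52.5% of flox neurons had an Asic2 UMI, and the unthinned shares were 47.1% and 78.6%. The 3′ counts do not separate the transcripts from the 2 start sites of Asic2.

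Asic3, the subunit of muscle and skin afferents that carries lasting acid currents, was found in fewer classes. Its level over all neurons was 14.9 CPM in the cKO library and 15.9 CPM in the flox library. Neurons with Calca and neurofilament but little Tac1, a class of thinly myelinated nociceptors, had 47.4 CPM (39.3 to 56.7) in the cKO library and 102 CPM (92.6 to 113) in the flox library. Ntrk3 mechanoreceptors had 51.4 and 35.9 CPM in the cKO and flox libraries, Ntrk2 mechanoreceptors 23.5 and 31.0 CPM, and Calca and Tac1 nociceptors 23.9 and 24.3 CPM. In Mrgprd nociceptors Asic3 was at 1.93 CPM in the cKO and 2.74 CPM in the flox library, and Trpm8 neurons had 0 UMIs in the cKO and 3 UMIs in the flox library. In the Mrgprd, Trpm8, Nppb and C-low-threshold-mechanoreceptor-like classes all levels of Asic3 were under 3 CPM.

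Asic1, the widespread proton-gated subunit of the nervous system, was highest in proprioceptor-like neurons in the flox library. These muscle-length sensors, gated here on Pvalb together with Ntrk3, had 45.5 CPM (34.9 to 58.2) in the cKO library and 91.8 CPM (78.1 to 107) in the flox library. Ntrk3 mechanoreceptors had 33.8 CPM in the cKO library and 38.8 CPM in the flox library, and Calca neurofilament neurons had 37.8 and 34.3 CPM. The 3 classes were not separated by their intervals in the cKO library, where a stricter gate put Calca neurofilament neurons first at 51.5 CPM, against 41.4 CPM in proprioceptor-like neurons. The gene was near the floor in Mrgprd nociceptors, with 4.18 CPM in the cKO and 1.71 CPM in the flox library, and no Asic1 UMI was found in the 11 cKO and 19 flox Nppb pruriceptors. Asic1 and Asic3 were found together in single neurons more often than the product of their shares gives. At 10000 UMIs per cell 44 cKO neurons and 33 flox neurons had both genes, against 15.04 and 11.8 from the product, or 2.92-fold and 2.79-fold. Piezo2 with Asic3 stood at 1.03-fold in the cKO and 0.977-fold in the flox library, and Piezo2 with Kcnk2 at 0.853-fold and 0.797-fold. These ratios are descriptions over all neurons and include the differences between subtypes given above.

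The 2 stretch-gated potassium channels peaked in different subtypes, but both were counted in Calca and Tac1 nociceptors. Kcnk2 peaked in Trpm8 neurons at 129 CPM (108 to 154) in the cKO library and 88.3 CPM (71.6 to 108) in the flox library, followed by Calca and Tac1 nociceptors at 56.0 CPM in the cKO and 84.3 CPM in the flox library. The order of these classes was separated by their intervals in the cKO library only, and Kcnk2 was at 3.05 CPM in cKO and 2.29 CPM in flox Mrgprd nociceptors. Trpm8 neurons were thus highest for Kcnk2 and lowest for Piezo2. Kcnk4 was at 27.5 and 25.5 CPM in Ntrk2 mechanoreceptors of the cKO and flox libraries and at 27.5 and 30.03 CPM in Calca neurofilament neurons. It was at 2.99 CPM in cKO and 2.37 CPM in flox Mrgprd nociceptors. Kcnk4 shares 587 of its 4465 exon bases with Catsperz on the same strand, starting 828 bases from its 3′ end. Sensory neurons had 546 Catsperz UMIs in the cKO and 457 in the flox library, so Kcnk4 levels and ratios are uncertain. Tmem63b varied least, at 102 to 161 CPM over the 9 subtypes in the cKO library and 92.9 to 196 CPM in the flox library, a spread of 1.58-fold and 2.12-fold. Exons of Tmem63b, Kcnk2 and Piezo1 overlap genes on the opposite strand.

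Stoml3 was nearly absent. It had 6 UMIs in the 3099 cKO neurons and 12 in the 1573 flox neurons, or 0.115 and 0.173 CPM, and no subtype held more than 6. Piezo1 was likewise at 29 UMIs in cKO and 30 UMIs in flox neurons.

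Outside neurons the 9 genes had a second pattern, led by Piezo1. Endothelial cells, in which Piezo1 is known as the sensor of blood flow, had 166 CPM (138 to 199) in the cKO library and 98.03 CPM (82.2 to 116) in the flox library. Fibroblasts had 36.1 CPM in the cKO and 28.2 CPM in the flox library, and macrophages 38.3 and 24.7 CPM, whereas neurons of both libraries were under 1 CPM. Piezo2 was also counted in endothelial cells (159 CPM in the cKO and 125 CPM in the flox library) and fibroblasts (114 and 81.0 CPM). Asic2, a gene counted mostly in neurons, gave 7 UMIs beside 666 of Piezo2 in cKO fibroblasts and 34 beside 866 in flox fibroblasts. In neurons the same pair gave 4198 beside 26828 UMIs in the cKO and 5433 beside 40870 in the flox library.

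Kcnk2 was at 69.4 CPM in cKO fibroblasts and 80.02 CPM in flox fibroblasts, above its level over all neurons (22.3 and 19.5 CPM). Sensory neurons held 71.2% of all Kcnk2 UMIs in the cKO library and 51.9% in the flox library. Tmem63b was at 131 CPM (117 to 146) in myelinating Schwann cells of the cKO library and 108 CPM (102 to 114) in those of the flox library, higher than in Fabp7 glia (61.9 and 67.9 CPM) and fibroblasts (29.2 CPM in each). Asic1, Asic2 and Asic3 were all under 2 CPM in the glia of both libraries.

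**Figure D2:**
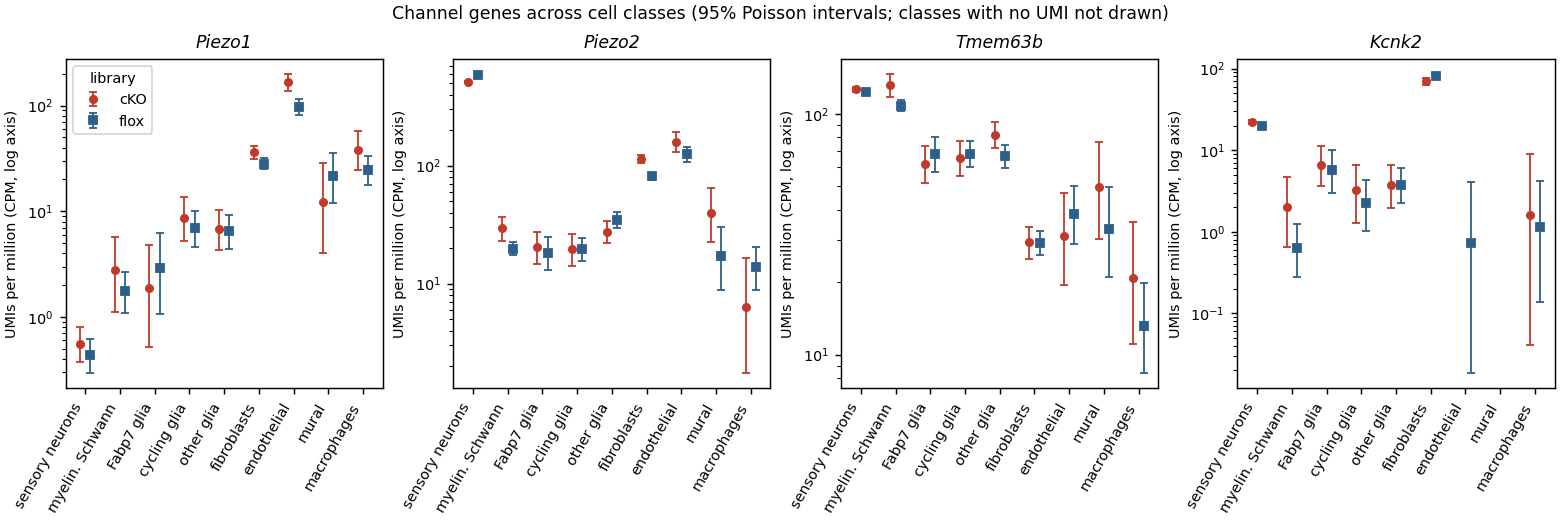
Levels of Piezo1, Piezo2, Tmem63b and Kcnk2 (CPM, log axis, 95% Poisson intervals) in sensory neurons and 8 other cell classes, cKO circles left of flox squares. Piezo1 is highest in endothelial cells (166 CPM cKO, 98.03 CPM flox), and Kcnk2 in fibroblasts (69.4 CPM cKO, 80.02 CPM flox).

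Between the libraries, none of the 8 genes with at least 50 UMIs differed by 0.5 log2 or more over all sensory neurons. Of the 15053 genes measured there, 9.26% were higher by that size in the cKO library and 4.38% lower, with a median ratio of -0.02. The 8 ratios ran between -0.20 and 0.36 with a median of 0.04. Asic1 had a ratio of -0.20 (-0.35 to -0.05), Asic3 of -0.10 (-0.23 to 0.03), Asic2 of 0.04 (-0.02 to 0.10) and Tmem63b of 0.04 (-0.01 to 0.09). Kcnk2 stood at 0.19 (0.08 to 0.31), Kcnk4 at 0.32 (0.16 to 0.47) and Piezo1 at 0.36 (-0.43 to 1.15). Kcnk4 had the highest ratio whose interval lay above 0. Catsperz, which shares exon bases with Kcnk4, also had more UMIs in cKO neurons (546 of 52101213) than in flox neurons (457 of 69203827). The part of Catsperz in the Kcnk4 ratio was not tested.

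These ratios depended on how the cells were weighted, and the levels ran differently with depth in the 2 libraries. In cKO neurons Piezo2 was between 347 and 375 CPM in each of 4 depth groups under 20000 UMIs per cell, and 476, 645 and 749 CPM in neurons of 20000 to 40000, 40000 to 80000 and over 80000 UMIs. In flox neurons it was 789, 2361, 1797 and 1298 CPM in the groups under 20000 UMIs, and 465, 559 and 594 CPM in the groups above. Flox neurons under 20000 UMIs thus stood 2.63-fold above deeper flox neurons, whereas cKO neurons under 20000 UMIs stood at 0.652 of the deeper ones.

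The same shallow flox neurons had more of 2 long noncoding RNAs that stay largely in the nucleus. Meg3 was 2.99-fold and Malat1 1.99-fold higher in shallow than in deeper flox neurons, against 0.749-fold and 0.757-fold in cKO neurons. Tmem63b (2.44-fold) and Asic1 (3.25-fold) moved with them in the flox library. Within Mrgprd nociceptors alone Piezo2 was 4.27-fold higher in shallow than in deeper flox cells and 0.964-fold in cKO cells, so the flox pattern was also seen within 1 subtype. The 12 cKO Mrgprd nociceptors of 2500 to 5000 UMIs had 1438 CPM of Piezo2 (1117 to 1824), 4654 CPM of Meg3 and 20159 CPM of Malat1, against 674, 2037 and 12358 CPM in the deeper cKO cells. A few shallow cKO cells of this class thus had high levels of the same 3 genes. The part of RNA quality in the ratios was not tested.

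**Figure D3:**
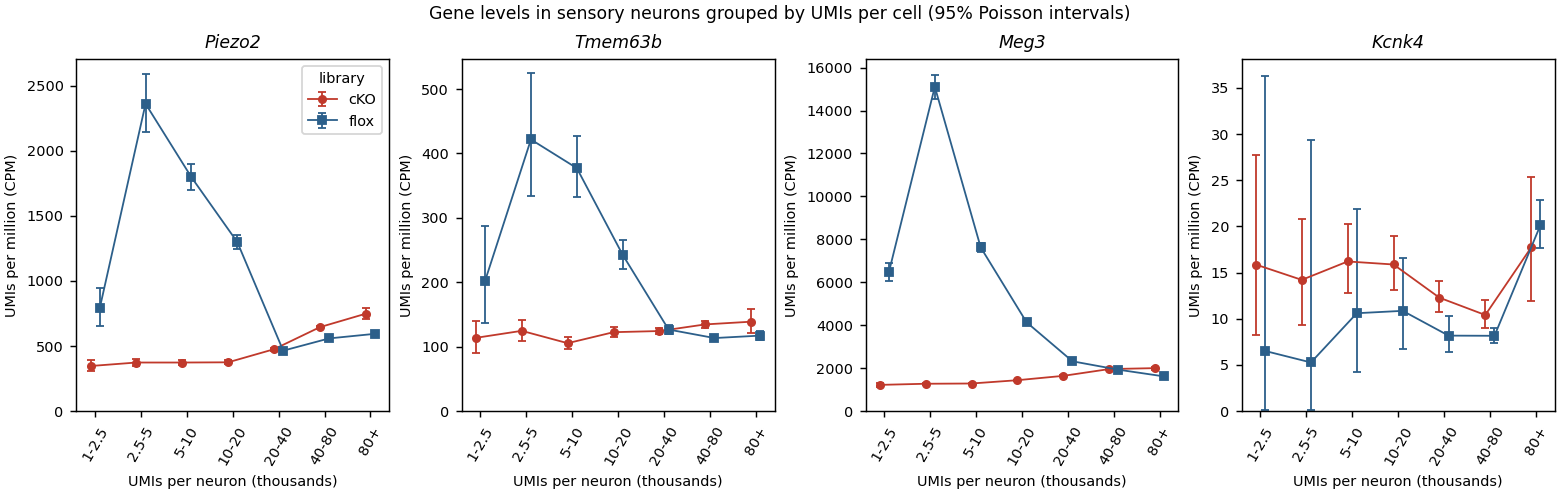
Levels of Piezo2, Tmem63b, Meg3 and Kcnk4 (CPM, 95% Poisson intervals) in sensory neurons grouped by UMIs per cell, cKO circles and flox squares. Piezo2, Tmem63b and Meg3 are far higher in flox neurons of 2500 to 20000 UMIs than in deeper flox neurons, and no such peak is drawn for the cKO library.

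Restricted to neurons with at least 20000 UMIs, Piezo2 was at 572 CPM in the cKO library and 552 CPM in the flox library, a ratio of 0.05. When each cell was given equal weight by thinning to 2000 UMIs, the Piezo2 ratio was -0.88, Asic1 stood at -0.93 and Kcnk4 at 1.00, while the median of all genes was -0.12. Thinning to 10000 UMIs gave -0.40 for Piezo2, -0.21 for Asic1 and 0.59 for Kcnk4. The signs of the Piezo2, Tmem63b, Asic2, Asic3 and Kcnk2 ratios differed between the 5 weightings plotted, whereas Asic1 was negative and Kcnk4 positive in all 5.

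**Figure D4:**
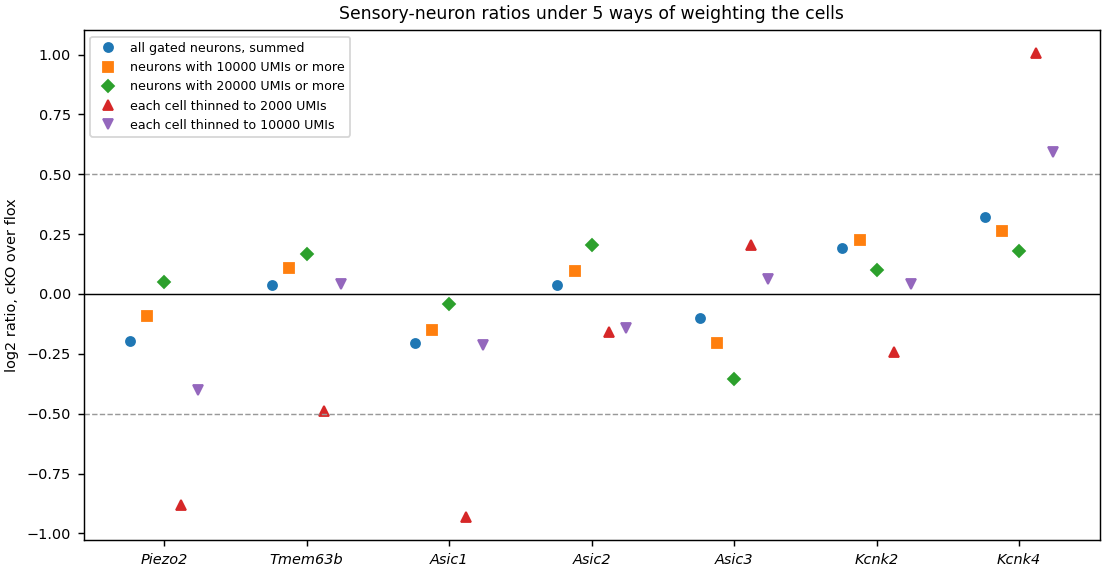
Log2 ratio of cKO over flox for 7 channel genes over all sensory neurons, under 5 ways of weighting the cells, with dashed lines at 0.5 either way. The Piezo2 ratio runs between -0.88 (each cell thinned to 2000 UMIs) and 0.05 (neurons with 20000 UMIs or more).

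By subtype, the ratios of a gene differed in sign, with few cells behind the smaller classes. Of the members with at least 50 UMIs, 1 of 6 was past 0.5 log2 either way in Ntrk2 mechanoreceptors (12.8% of all genes measured there), 3 of 7 in Ntrk3 mechanoreceptors (15.6%), 2 of 5 in proprioceptor-like neurons (25.2%) and 1 of 4 in C-low-threshold-mechanoreceptor-like neurons (18%). It was 2 of 7 in Mrgprd nociceptors (17.3%), 1 of 7 in Calca and Tac1 nociceptors (20.3%), 2 of 7 in Calca neurofilament neurons (19.2%), 4 of 5 in Trpm8 neurons (18.2%) and 1 of 3 in Nppb pruriceptors (25.8%). Tmem63b and Kcnk4 were past 0.5 in no subtype. Markers of other cells also differed between the libraries, and not in 1 direction. The summed level of 10 myelinating Schwann markers was lower in the cKO library in 8 of the 9 subtypes. Over all sensory neurons these markers summed to 988 CPM in the cKO and 1402 CPM in the flox library. The 6 satellite glia markers summed to 1398 and 638 CPM there, and the 8 fibroblast markers to 401 and 189 CPM, both higher in the cKO library. The part of these markers in the ratios was not tested.

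In Trpm8 neurons, 49 cKO and 31 flox cells, Piezo2, Asic2 and Kcnk2 were higher in the cKO library. Piezo2 had 228 UMIs (232 CPM) in the cKO library and 178 UMIs (162 CPM) in the flox library, a ratio of 0.52 (0.23 to 0.81), which was 0.85 in neurons with at least 20000 UMIs. Asic2 had 35 UMIs in the cKO and 19 UMIs in the flox library, a ratio of 1.04 (0.19 to 1.93). Kcnk2 had a ratio of 0.55 (0.15 to 0.94), which was 0.20 in the deeper neurons. Asic1 had 19 UMIs in the cKO library and 34 UMIs in the flox library, a ratio of -0.68 (-1.57 to 0.17). It was -0.40 (-1.33 to 0.48) in the deeper neurons, so the calls of Kcnk2 and Asic1 ended there. In the same neurons satellite glia markers summed to 2386 CPM in the cKO and 1405 CPM in the flox library and myelinating Schwann markers to 409 and 1125 CPM, and their part in the ratios was not tested. At 10000 UMIs per cell 37.1% of 35 cKO and 19.4% of 31 flox Trpm8 neurons had a Piezo2 UMI.

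Proprioceptor-like neurons, 74 cKO and 44 flox cells, were lower in the cKO library for the summed levels of Piezo2 and Asic1. Piezo2 was at 388 CPM (355 to 422) in the cKO library and 609 CPM (573 to 647) in the flox library, a ratio of -0.65, and the ratio was -0.52 in neurons with at least 20000 UMIs. The typical cell did not show this difference, since at 10000 UMIs per cell the median was 4.5 Piezo2 UMIs (quartiles 2 and 6) in 46 cKO cells and 4 (quartiles 1.25 and 7) in 38 flox cells, and the highest flox cell had 20 against 9 in the cKO library. Asic1 had a ratio of -1.01 (-1.46 to -0.58), and -0.99 in the deeper neurons. Asic3 had a ratio of 0.12 in all cells of the class and -1.60 in the deeper ones, where 8 cKO and 43 flox UMIs were counted. Runx3, one of the markers of the class, was at 59.2 CPM in these cKO cells and 95.9 CPM in these flox cells. The 10 myelinating Schwann markers summed to 873 CPM in the cKO and 2645 CPM in the flox library, the 6 satellite glia markers to 1435 and 1734 CPM, and the 7 oligodendrocyte markers to 5.77 CPM (4 of 7 at 0) and 70.3 CPM (2 of 7 at 0). The part of these markers in the ratios was not tested. In Ntrk3 mechanoreceptors Piezo2 was at 648 CPM in the cKO and 937 CPM in the flox library, a ratio of -0.53 that was -0.19 in the deeper neurons. Asic3 was at 0.52 in the same class, and 0.46 in the deeper neurons, so both calls ended there. Kcnk2 had a ratio of 0.80 in this class, and 1.45 (0.46 to 2.49) in the deeper neurons from 24 cKO and 15 flox UMIs. Myelinating Schwann markers summed to 1109 CPM in the cKO and 2502 CPM in the flox library in this class. In Ntrk2 mechanoreceptors Kcnk2 had a ratio of 0.58, which was 0.27 (-0.38 to 0.91) in the deeper neurons.

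Kcnk2 was lower in the cKO library in both Calca classes, and Asic3 in the neurofilament class. Calca neurofilament neurons, 164 cKO cells at a median of 5958.5 UMIs and 60 flox cells at 73590 UMIs, had 119 Asic3 UMIs in the cKO and 412 in the flox library, a ratio of -1.11 (-1.42 to -0.81). In the 41 cKO and 53 flox cells with at least 20000 UMIs it was -1.16, at 42.9 CPM in the cKO and 95.8 CPM in the flox library. At 10000 UMIs per cell 32.8% of cKO and 58.2% of flox neurons of this class had an Asic3 UMI. Kcnk2 in the same class had a ratio of -0.84 (-1.36 to -0.34), and -0.69 in the deeper neurons. In this class satellite glia markers summed to 1408 CPM in the cKO and 395 CPM in the flox library and myelinating Schwann markers to 1002 and 2262 CPM, and their part in the ratios was not tested. In Calca and Tac1 nociceptors Kcnk2 had a ratio of -0.59 (-0.76 to -0.43), which was -0.19 in the deeper neurons, and Asic3 had a ratio of -0.02 (-0.30 to 0.25). Mrgprd nociceptors, the largest gated class in the flox library, had Piezo2 at a ratio of 0.09 and Asic2 at 0.23, and Asic1, with 63 cKO and 42 flox UMIs, at 1.29 (0.70 to 1.89). Asic3, with 29 cKO and 67 flox UMIs, had a ratio of -0.51 (-1.19 to 0.14) in this class. It was -0.43 in the deeper neurons, so its call ended there. In Mrgprd nociceptors with at least 20000 UMIs Asic1 was at 4.20 CPM in the cKO and 1.25 CPM in the flox library, a ratio of 1.75. Its UMIs were spread unevenly over depth, with 14 of the cKO UMIs in 7 cells over 80000 UMIs, and with 12 of the flox UMIs in 28 cells of 10000 to 20000 UMIs, 18 in 26 cells over 80000 UMIs and 9 in the 344 cells of 40000 to 80000 UMIs.

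**Figure D5:**
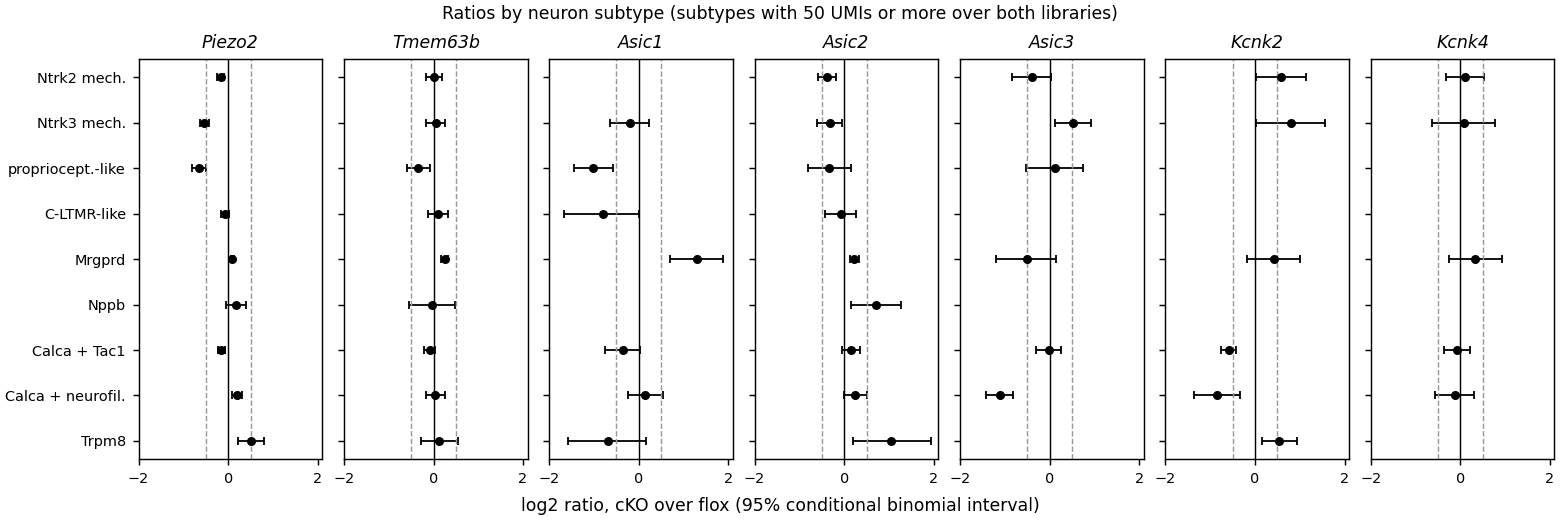
Log2 ratio of cKO over flox (points, with 95% conditional binomial intervals) by neuron subtype for 7 channel genes, with dashed lines at 0.5 either way. Asic3 in Calca neurofilament neurons (-1.11) and Asic1 in proprioceptor-like neurons (-1.01) lie left of the lines, and Asic1 in Mrgprd nociceptors (1.29) right of them.

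In glia 2 of 5 members measured were higher in the cKO library by 0.5 log2 or more and none lower, against 14.5% higher and 14.4% lower of all genes measured there. Kcnk4 had 55 UMIs (5.48 CPM) in the cKO library and 61 UMIs (2.61 CPM) in the flox library, a ratio of 1.07 (0.52 to 1.62). Kcnk2 had 38 UMIs in the cKO and 47 UMIs in the flox library, a ratio of 0.91 (0.26 to 1.56). Putting the glia with Olig1 UMIs back turned the Kcnk2 ratio to -0.44, ended its call and brought Piezo1 past 0.5 (0.56, against 0.48 without them), and left Kcnk4 at 1.06. The glial gates differ in their makeup, with 737 cKO and 488 flox Fabp7 glia and 513 cKO and 1479 flox myelinating Schwann cells, and Kcnk4 was above the flox level by different amounts in the 4 gates, each with under 50 UMIs. It was at 2.78 CPM in cKO and 2.39 CPM in flox myelinating Schwann cells, 9.45 and 3.85 CPM in Fabp7 glia, 6.87 and 4.23 CPM in cycling glia, and 4.04 and 1.26 CPM in other glia. Kcnk2, also under 50 UMIs in each gate, was at 1.98 CPM in cKO and 0.637 CPM in flox myelinating Schwann cells (5 and 8 UMIs). Its levels were 6.62 and 5.77 CPM in Fabp7 glia, 3.21 and 2.24 CPM in cycling glia, and 3.73 and 3.79 CPM in other glia. The part of the makeup of the glia in these ratios was not tested. Tmem63b, the member most counted in glia, had a ratio of -0.04 (-0.16 to 0.07).

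In endothelial cells Piezo1 had 118 UMIs in 132 cKO cells and 135 UMIs in 130 flox cells, a ratio of 0.76 (0.39 to 1.13). It was 1 of 3 members measured to pass 0.5 log2, where 43.8% of all genes did so either way. In fibroblasts none of 4 members measured passed, where 26.8% of all genes did, and Piezo2 came nearest with a ratio of 0.49 (0.34 to 0.64). Macrophages had Piezo1 at 0.64 (-0.15 to 1.39), the single member measured there, where 32.2% of all genes passed.

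A list of 32 other genes of mechanical and proton sensing or of partners of the 9 channels gave 25 measured in sensory neurons, of which 2 were higher by 0.5 log2 in the cKO library and 4 lower, against 9.26% higher and 4.38% lower of all genes measured, with a median of -0.01. The higher ones were Mdfic, a Piezo auxiliary subunit, with 34 UMIs in the cKO and 16 in the flox library and a ratio of 1.497 (0.60 to 2.45), and Mtmr2, a phosphoinositide phosphatase described as a brake on Piezo2, at 43.0 CPM in the cKO and 27.9 CPM in the flox library with a ratio of 0.63 (0.54 to 0.72). In neurons with at least 20000 UMIs Mtmr2 stood at 0.45 and Mdfic had 13 cKO and 11 flox UMIs, too few to be measured, so both calls ended. The lower ones were Pacc1, the proton-activated chloride channel, at -0.66, Tmem120a (TACAN) at -0.58, Stoml1, a stomatin relative that acts on acid-sensing channels, at -0.56, and Tmem150c (Tentonin 3) at -0.50. In the deeper neurons Tmem150c stood at -0.29, which ended its call, and the other 3 stayed between -0.66 and -0.58. Thinning to 10000 UMIs put Tmem120a at -0.26. Outside neurons, Stoml1 stood at -0.62 in glia and -0.77 in fibroblasts, and Tmem120a at -0.51 and -0.64. Their lower levels were thus not particular to neurons. Pacc1 stood at -0.20 (-0.65 to 0.23) in glia and at -0.92 (-1.94 to -0.005) in fibroblasts, there from 13 cKO and 45 flox UMIs. The next highest in sensory neurons, after Mtmr2, was Gpr65, a proton-sensing receptor, at 0.25 (-0.57 to 1.07).

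The genes whose levels ran most like each member were found over 16 classes, neuronal and other, in 2 libraries, 32 points that share libraries and depth. For Piezo2 these were Spock2 (Pearson r = 0.96), Impdh1 (0.96) and Tmem150c (0.95). For Piezo1 they were Acvrl1 (0.97), Icam1 (0.97) and Tgm2 (0.96). For Asic2 the first was Kcnd1 (0.98), for Asic3 Nos1 (0.97), for Asic1 Agap2 (0.92), for Tmem63b Map4 (0.98), for Kcnk4 Rab3b (0.93) and for Kcnk2 Stk26 (0.88). Over 8 neuron subtypes alone (16 points) Kcnd1 stayed first for Asic2 (0.95). The first gene was then Raph1 for Piezo2 (0.94), Prkcb for Asic3 (0.97), Ctxn2 for Asic1 (0.85) and Adgra3 for Tmem63b (0.95). It was Parva for Kcnk4 (0.94) and Msantd1 for Kcnk2 (0.95).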

How the data were processed

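The deposited files hold whole-number UMI counts per gene and cell barcode, not normalized. Per the file headers they were made with cellranger 6.1.2, and per the submitters' processing notes with Cell Ranger 5.0.1, Scanpy and mm10. The sources used here do not say whether intronic reads were counted. Barcodes were kept from 1000 UMIs and 500 genes up to 15% mitochondrial UMIs. Scrublet's own threshold marked 5 cKO and 0 flox cells, so cells were removed from the top of the score, 569 in the cKO and 607 in the flox library (0.8% for every 1000 cells).

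Neurons had a mean of ln(1 + UMIs per 10000) over 14 markers of 1.0 or more, and other classes a score under 0.6 for those markers and past the threshold of 1 class. Subtypes were gated on a few markers each. 1402 cKO and 480 flox sensory neurons met no subtype gate, and neurons with no peripheral markers (17 cKO, 11 flox) were left out. Vessels are endothelial and mural cells. UMIs were summed per class and library and scaled to CPM. Levels have exact Poisson, shares Clopper-Pearson and ratios conditional binomial intervals. Genes with at least 50 UMIs over both libraries were measured, and 0.5 log2 was the size named. Likeness used log2 of CPM plus 10 in genes with at least 200 UMIs. The interval and size rule were tested on simulated data.

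All 9 channel genes are named, and of the related list the 3 highest, 3 lowest and those past 0.5 log2. The members, lists and gates were chosen with earlier results of these data known, and the Olig1 split was made after seeing the data. Gene positions and overlaps came from GENCODE vM21 on GRCm38. TMM factors came from edgeR 4.0.16 in R 4.3.3. Doublet scores came from scanpy 1.11.5, intervals from scipy 1.17.1, sums from numpy 2.4.6 with pandas 2.3.3, and plots from matplotlib 3.10.9, under Python 3.11.15.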

Additional observations from a re-analysis of the deposited data

Results flagged for a closer look

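Several channel genes had ratios past 0.5 log2 in opposite directions in different neuron subtypes, in 1 library per genotype. These differences between subtypes were not tested, and some calls ended in neurons with at least 20000 UMIs. Between 12.8% (Ntrk2 mechanoreceptors) and 25.8% (Nppb pruriceptors) of all genes measured were past 0.5 log2 either way in a single subtype. The share of all genes past it in opposite directions in different subtypes was not taken. The pattern is therefore not shown to be particular to the channel genes. Piezo2 had ratios (log2 of cKO over flox) of 0.52 in Trpm8 neurons, -0.53 in Ntrk3 mechanoreceptors and -0.65 in proprioceptor-like neurons, which were 0.85, -0.19 and -0.52 in the deeper neurons. Asic3 stood at 0.52 in Ntrk3 mechanoreceptors and -1.11 in Calca neurofilament neurons, which were 0.46 and -1.16 in the deeper neurons. Kcnk2 stood at 0.58 in Ntrk2 mechanoreceptors, 0.80 in Ntrk3 mechanoreceptors and 0.55 in Trpm8 neurons, and at -0.59 in Calca and Tac1 nociceptors and -0.84 in Calca neurofilament neurons. In the deeper neurons Kcnk2 was past 0.5 in Ntrk3 mechanoreceptors (1.45) and Calca neurofilament neurons (-0.69), and at 0.27 in Ntrk2 mechanoreceptors, 0.20 in Trpm8 neurons and -0.19 in Calca and Tac1 nociceptors. Asic1 stood at 1.29 in Mrgprd nociceptors, -1.01 in proprioceptor-like neurons and -0.79 in C-low-threshold-mechanoreceptor-like neurons, which were 1.75, -0.99 and -0.70 in the deeper neurons.

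Cells with markers of the central nervous system were found in the flox library and not in the cKO library, and they carried channel genes outside the comparisons above. In 301 glia with Olig1 UMIs, Asic1 stood at 18.6 CPM and Kcnk2 at 35.6 CPM. In 290 oligodendrocytes Kcnk2 stood at 51.5 CPM and Tmem63b at 192 CPM. Before these glia were set apart, 40 of the 46 flox glia with an Asic1 UMI and 51 of the 92 with a Kcnk2 UMI also had an Olig1 UMI.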

How the results depend on the processing

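Over all sensory neurons the count of channel genes past 0.5 log2 was 0 higher and 0 lower in the cKO library. Of all genes measured there, 9.26% were higher and 4.38% lower. That share was not taken under the other settings, so the counts below cannot be set beside it. The count of channel genes was 2 higher and 2 lower with the mean of each cell's CPM, and 1 higher and 2 lower with cells thinned to 2000 UMIs. It was 1 higher with cells thinned to 10000 UMIs, and 1 lower with no minimum of 50 UMIs. Related genes higher in the cKO library numbered 2, against 1 in neurons with at least 10000 UMIs, 1 after thinning to 2000 UMIs, 1 after thinning to 10000 UMIs, 1 under a stricter gate, 0 in neurons with at least 20000 UMIs and 5 with no minimum. Mdfic is the call lost where 1 is left, with under 50 UMIs in each of these settings, and Mtmr2 is also lost at 20000 UMIs (0.45). Thinned to 2000 UMIs, 4 of 7 channel genes kept the same highest subtype in the flox library. TMM factors, keeping doublets and leaving out barcodes found in both libraries moved no value past its counting interval. With the glia that had Olig1 UMIs put back, the Kcnk2 ratio in glia was -0.44, against 0.91 without them. The settings of 20000 UMIs and thinning to 10000 UMIs, leaving out shared barcodes and putting back these glia, were chosen after seeing the data. The mean of each cell's CPM and thinning to 2000 UMIs moved the median of all genes to -0.12. Over all sensory neurons, 33 of the channel-gene ratios under other settings moved beyond their intervals and 42 did not. Within subtypes, 30 of 164 ratios moved beyond their intervals. No paired analysis was possible because each genotype has 1 library. Depth limits Stoml3 everywhere, Piezo1 in neurons and Asic1 in the smaller subtypes.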
